A study of Homo sapiens with 2 samples.

Results

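The 40 genes described here act in the G2 phase of the cell cycle and in mitosis. They were taken as a list of names and were matched by gene symbol to the deposited gene count table, where all 40 were found among 60671 distinct genes. They fall into 10 groups by role, from the cyclins that start mitosis to the proteins that divide the cell at its end. The samples were C4-2B cells, an established human line of castration-resistant prostate cancer, cultured with 10% fetal bovine serum and given either vehicle or (R)-9b, a small-molecule inhibitor of the tyrosine kinase ACK1 (the product of TNK2). The (R)-9b cells received 1 µM overnight. The sample labels call the cell type breast cancer, whereas the paper that reported the data treats the line as a prostate cancer line. Each condition is represented by 1 RNA library, so the spread between cultures was not measured, there is no replicate check and no test of the conditions was possible. In these bulk libraries, fewer dividing cells and less RNA per dividing cell cannot be told apart.

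In G2 and mitosis, cyclin B and CDK1 form the kinase that drives the cell into division, and its activity is set off by CDC25 phosphatases and Polo kinase. The spindle then attaches to chromosomes at kinetochores, the spindle assembly checkpoint holds the anaphase-promoting complex (APC/C) back until every chromosome is attached, and CDC20 releases it to destroy cyclin B and the securin PTTG1. The genes are switched on together late in each cycle by MuvB complexes, which bind a promoter element called the CHR (cell cycle genes homology region), by NF-Y, which binds the CCAAT box, and by the transcription factors MYBL2 and FOXM1, so their mRNA levels are widely used as a measure of proliferation.

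The promoters of these genes share sequence features that the choice of genes did not use. RefSeq promoter windows of GRCh38.p14, which run from 250 bases before to 50 bases after a start site, were matched for 33 of the 40 genes, with 45 windows in all because some genes have several start sites. AURKA, BIRC5, BUB3, FOXM1, TPX2, TTK and UBE2C were not matched. A CCAAT box (CCAAT on either strand) lay in 31 of the 45 windows (68.9%), against 34.6% of all 35116 windows in the table. A CHR (TTTGAA or TTCGAA on either strand) lay in 28 windows (62.2%), against 16.4% of all windows, and both elements lay in 22 windows (48.9%), against 6.38%. The A/T form TTTAAA, which reads the same on both strands and cannot share bases with the other CHR words, was found in 14 windows (31.1%), against 12.2%. The median position of the first base of a CHR was 27 bases before the start site and that of a CCAAT box was 85 bases before it. A CCAAT box can share its last base with any of the other words. Such matches describe letters and not binding. Windows of 1 gene overlap, and the windows of all genes include those of non-coding genes.

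**Figure D1:**
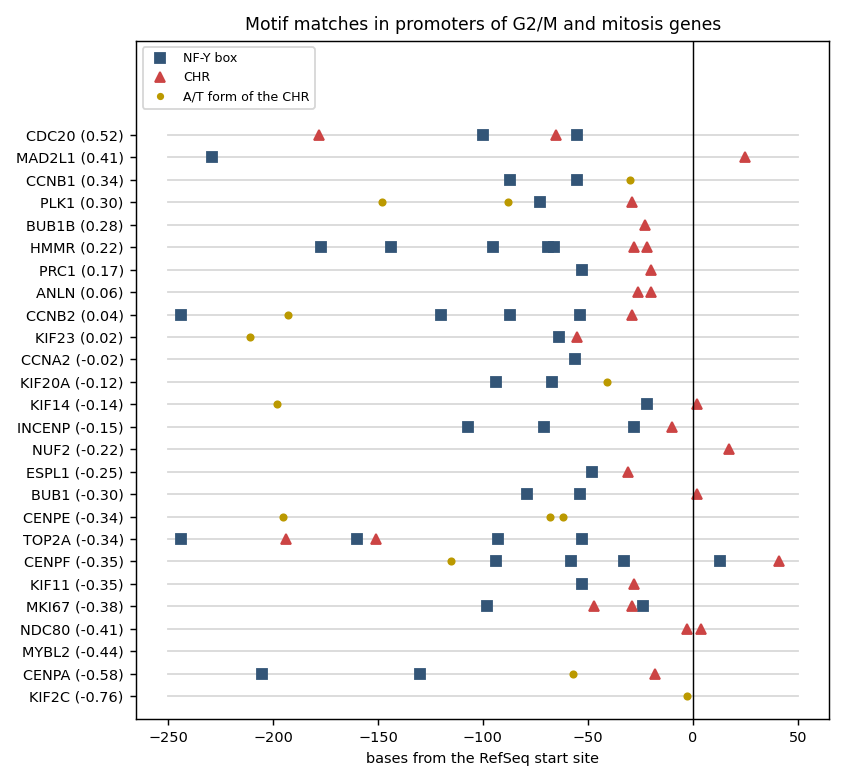
Matches of the NF-Y box (the CCAAT box, blue squares), the CHR (red triangles) and its A/T form (yellow dots) in the 26 genes with 1 RefSeq window, against the distance in bases from the start site (horizontal axis); genes are ordered by the log2 ratio of their levels, given after the name. CDC20 at the top and CENPA near the bottom of the order both hold CCAAT boxes and the CHR. KIF2C, at -0.76, has a match to the A/T form only, across its start site. Also near the bottom, MYBL2, at -0.44, has no match, and NDC80, at -0.41, has matches to the CHR only.

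Promoters of 4 genes are printed because they span the range of the expression ratios given below: CDC20 had the highest ratio, CCNB2 was close to the middle, and CENPA and KIF2C had the lowest ratios. Each line gives the 250 bases before the RefSeq start site on the plus strand, 5′ to 3′, in GRCh38.p14. Capitals mark the CCAAT box, the CHR word TTTGAA and the A/T form TTTAAA, each on either strand.
CDC20 (chr1:43358731-43358980): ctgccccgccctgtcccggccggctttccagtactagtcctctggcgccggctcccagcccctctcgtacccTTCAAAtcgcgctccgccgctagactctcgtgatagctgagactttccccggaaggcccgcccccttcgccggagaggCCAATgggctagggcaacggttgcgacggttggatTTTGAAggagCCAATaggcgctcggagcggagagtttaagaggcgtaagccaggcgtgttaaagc
CCNB2 (chr15:59104896-59105145): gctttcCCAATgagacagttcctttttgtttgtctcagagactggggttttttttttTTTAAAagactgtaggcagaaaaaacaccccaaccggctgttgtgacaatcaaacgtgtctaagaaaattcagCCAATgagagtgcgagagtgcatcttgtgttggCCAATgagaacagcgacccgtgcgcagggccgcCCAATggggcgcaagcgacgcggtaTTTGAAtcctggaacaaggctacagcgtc
CENPA (chr2:26785806-26786055): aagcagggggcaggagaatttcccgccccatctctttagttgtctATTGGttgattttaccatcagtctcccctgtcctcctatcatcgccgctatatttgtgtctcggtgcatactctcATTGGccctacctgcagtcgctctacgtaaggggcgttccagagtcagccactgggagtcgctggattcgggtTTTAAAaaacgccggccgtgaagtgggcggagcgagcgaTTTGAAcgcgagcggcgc
KIF2C (chr1:44739587-44739836): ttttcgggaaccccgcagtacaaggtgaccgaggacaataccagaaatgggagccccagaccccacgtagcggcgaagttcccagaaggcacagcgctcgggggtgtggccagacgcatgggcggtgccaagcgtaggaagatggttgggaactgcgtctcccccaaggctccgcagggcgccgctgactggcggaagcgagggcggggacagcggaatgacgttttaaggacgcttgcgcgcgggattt

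CDC20 holds 2 CCAAT boxes and 2 CHR matches in this stretch, CCNB2 holds 4 CCAAT boxes, 1 CHR match and 1 A/T form, and CENPA holds 2 CCAAT boxes, 1 CHR match and 1 A/T form. KIF2C holds none of these words in the bases shown. Over the 33 genes, the 20 with a CCAAT box and a CHR in the same window had a median log2 ratio of -0.06 (range -0.58 to 0.52). The other 13 had a median of -0.12 (range -0.76 to 0.34), so the ranges overlapped over most of their extent. The A/T form was not counted as a CHR in this split. Among the 13, CCNB1, PTTG1 and KIF20A hold it in a window with a CCAAT box.

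The authors' gene counts, the number of reads assigned to each gene, summed to 65207444 for vehicle and 57653965 for (R)-9b. They were scaled with the TMM method, and levels are given as normalized CPM (counts scaled to a common library size) and ratios as (R)-9b over vehicle on a log2 scale. Mitochondrially encoded genes took 1.49% of the counts in vehicle and 9.54% in (R)-9b. With these genes left out of the library totals every log2 ratio was 0.063 higher than with TMM, and with plain totals it was 0.060 lower (a shift of -0.060). The prostate markers KLK3 (146597 and 297728 counts in vehicle and (R)-9b, respectively) and FOLH1 (52660 and 44545 counts) were abundant in both libraries, and the summed level of 8 prostate markers was 4833 normalized CPM in vehicle and 9804 in (R)-9b. Of 5 breast markers, TRPS1 had 906 and 516 counts, PGR had 10 and 2, and PRLR had 2 and 0. The breast markers SCGB2A2 and ANKRD30A had 0 counts in both, which allows up to 3 counts, as had the immune marker PTPRC. Of 6 immune markers 4 had a count, the 2 with at least 10 counts summing to 0.150 and 0.301 normalized CPM, and all 6 stromal and endothelial markers had counts, the 4 with at least 10 summing to 28.9 normalized CPM in vehicle, with a log2 ratio of the sums of 0.61. The part of these differences in the results was not tested.

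The G2/M and mitosis genes as a whole were at nearly the same level in both libraries. Their summed level was 2128 normalized CPM in vehicle and 2082 normalized CPM in (R)-9b, a log2 ratio of -0.03. The median log2 ratio was -0.10, with an interquartile range of -0.31 to 0.18, against a median of 0.00 over the 23446 genes with at least 10 counts in the 2 libraries together and of -0.03 over the 10240 genes with at least 1000 counts. Only KIF2C was beyond 1.5-fold, lower in the (R)-9b library. Beyond 1.5-fold, 18.0% of the genes with at least 10 counts were lower and 20.2% were higher, and among the genes with at least 1000 counts, as 39 of the 40 had, the shares were 10.0% and 8.72%. Thus 1 of 40 genes (2.50%) was beyond 1.5-fold in either direction, against 18.8% of the genes with at least 1000 counts. Beyond 2-fold there were none of the 40, against 9.53% lower and 11.5% higher among all genes with at least 10 counts. Few of the abundant genes were beyond 2-fold either. Of the 10240 genes with at least 1000 counts, 308 were lower and 273 were higher.

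Within these limits the genes did not move as a block. For each ratio a 95% interval was computed by the exact Clopper-Pearson method, which covers counting error only and whose half-width on the log2 scale had a median of 0.08. By this measure 19 genes were lower in (R)-9b, 11 were higher, and for 10 the interval included 0. The interval lay below 0 for 44.8% of the genes with at least 1000 counts and above 0 for 37.5%, and for 48.7% and 28.2% of the 39 G2/M and mitosis genes of that depth. Counting error is small at this depth, so an interval clear of 0 says at most that the libraries differed and not that the treatments did. CDC20 and KIF2C, the ends of the order, lay 1.28 apart on the log2 scale.

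**Figure D2:**
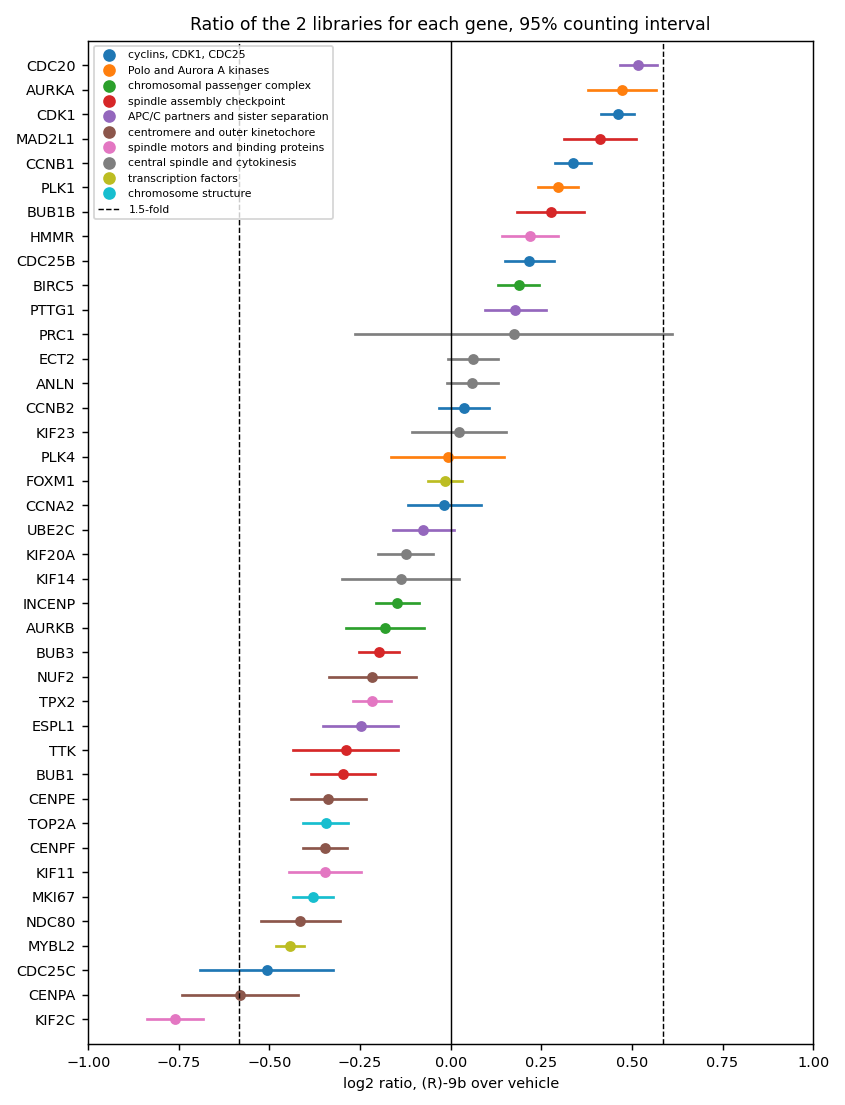
Log2 ratio of (R)-9b to vehicle (horizontal axis) for the 40 genes in order, with bars for the 95% counting interval, colours for the role of each gene and dashed lines at 1.5-fold. All points but KIF2C at -0.76 lie between the dashed lines, and CDC20, AURKA, CDK1 and MAD2L1 are at the top, above 0.40.

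The kinase that starts mitosis was represented by 6 genes. CCNB1, which encodes cyclin B1, had 6293 counts in vehicle and 6746 in (R)-9b, or 94.5 and 119 normalized CPM. Its log2 ratio was 0.34 (95% interval 0.29 to 0.39). CDK1, its catalytic partner, had 7127 and 8318 counts, or 107 and 147 normalized CPM, a log2 ratio of 0.46 (0.41 to 0.51). Both were thus higher in the (R)-9b library, by 1.26-fold and 1.38-fold. CCNB2, which encodes cyclin B2, had 3541 and 3080 counts and a log2 ratio of 0.04 (-0.03 to 0.11), and CCNA2, which encodes the cyclin A of S and G2 phase, had 1802 and 1510 counts and a log2 ratio of -0.02 (-0.12 to 0.08). Neither differed beyond counting error. The phosphatases that remove the inhibitory phosphates from CDK1 went opposite ways. CDC25B had 3675 and 3623 counts and a log2 ratio of 0.22 (0.15 to 0.28), whereas CDC25C had 659 and 393 counts and a log2 ratio of -0.51 (-0.69 to -0.33).

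PLK1, the Polo kinase that promotes mitotic entry and spindle formation, had 5141 counts in vehicle and 5349 in (R)-9b, a log2 ratio of 0.30 (0.24 to 0.35). AURKA, the spindle pole kinase that activates PLK1, had 1754 and 2064 counts, and its log2 ratio of 0.47 (0.38 to 0.57) was the second highest of the 40. PLK4, which controls centriole duplication and not mitotic entry, had 746 and 629 counts and a log2 ratio of -0.01 (-0.16 to 0.15). The chromosomal passenger complex, in which Aurora B corrects faulty attachments, showed small differences in both directions. AURKB had 1648 and 1233 counts and a log2 ratio of -0.18 (-0.29 to -0.07), and INCENP, its scaffold, had 5227 and 4003 counts and a log2 ratio of -0.15 (-0.21 to -0.09). BIRC5, which encodes the subunit survivin, had 5194 and 5017 counts and a log2 ratio of 0.19 (0.13 to 0.24).

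Of the genes of the spindle assembly checkpoint, MAD2L1 and BUB1B, whose proteins bind and inhibit CDC20, were higher in (R)-9b. MAD2L1 had 1561 counts in vehicle and 1761 in (R)-9b, a log2 ratio of 0.41 (0.31 to 0.51), and BUB1B had 1842 and 1891 counts, a log2 ratio of 0.28 (0.18 to 0.37). The kinases BUB1 and TTK, which act at kinetochores to set up the signal, were lower. BUB1 had 2551 and 1760 counts and a log2 ratio of -0.30 (-0.39 to -0.21), and TTK had 951 and 660 counts and a log2 ratio of -0.29 (-0.43 to -0.14). BUB3, which carries BUB1 and BUB1B to kinetochores, had 6278 and 4638 counts and a log2 ratio of -0.20 (-0.25 to -0.14).

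CDC20 (ENSG00000117399, chromosome 1, 43358955 to 43363203, plus strand, in the GENCODE 29 annotation of GRCh38), the APC/C activator that these checkpoint proteins hold, had 5674 counts in vehicle and 6889 in (R)-9b. This was 85.2 and 122 normalized CPM, and its log2 ratio of 0.52 (0.47 to 0.57), or 1.43-fold, was the highest of the 40. PTTG1, the securin that APC/C destroys, had 2380 and 2284 counts and a log2 ratio of 0.18 (0.09 to 0.26). UBE2C, the ubiquitin-conjugating enzyme of APC/C, had 2516 and 2025 counts and a log2 ratio of -0.08 (-0.16 to 0.01). ESPL1, which encodes separase, the protease that cuts cohesin once securin is gone, had 1785 and 1274 counts and a log2 ratio of -0.25 (-0.35 to -0.14). CDC20 and PTTG1 were therefore higher, ESPL1 lower, and UBE2C within counting error.

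The 5 centromere and outer kinetochore genes had a median log2 ratio of -0.35, and all 5 intervals lay below 0, as did 44.8% of those of genes with at least 1000 counts. CENPA (ENSG00000115163, chromosome 2, 26764289 to 26801067, plus strand), the histone H3 variant that marks centromeres, had 885 counts in vehicle and 502 in (R)-9b, and its log2 ratio of -0.58 (-0.74 to -0.42) lay just inside 1.5-fold. CENPE, a kinesin that moves chromosomes to the spindle equator, had 1870 and 1255 counts and a log2 ratio of -0.34 (-0.44 to -0.23). CENPF, a large kinetochore protein, had 5538 and 3695 counts and a log2 ratio of -0.35 (-0.41 to -0.29). NDC80 and NUF2, which together form the microtubule-binding end of the NDC80 complex, had log2 ratios of -0.41 (1767 and 1124 counts) and -0.22 (1351 and 986 counts). Not every gene of these structures was lower. Looked up after their values were seen, some centromere and kinetochore genes that are not among the 40 had intervals above 0. They included CENPN at 1.03, KNSTRN at 0.45 (2265 and 2625 counts) and CENPI at 0.27 (435 and 445 counts). SPAG5 at 0.20 and HJURP at 0.12 were also above 0. For ZWINT at 0.04, SGO2 at -0.09 and SGO1 at -0.13 the interval included 0. Other such genes outside the 40 had intervals below 0. Among them were SKA1 at -0.89, CENPM at -0.53, SKA2 at -0.41 and SPC24 at -0.35. The same held for SPC25 at -0.32, CENPK at -0.30, SKA3 at -0.28 and KNL1 at -0.23.

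Among the spindle motors and microtubule-binding proteins, KIF2C (ENSG00000142945, chromosome 1, 44739818 to 44767767, plus strand), the microtubule-depolymerizing kinesin also called MCAK, had 4011 counts in vehicle and 2009 in (R)-9b. This was 60.2 and 35.6 normalized CPM, a log2 ratio of -0.76 (-0.84 to -0.68), so that (R)-9b had 0.591 times the vehicle level. KIF11, the motor that pushes spindle poles apart, had 2045 and 1363 counts and a log2 ratio of -0.35 (-0.45 to -0.25). TPX2, which activates Aurora A on the spindle, had 6724 and 4905 counts and a log2 ratio of -0.22 (-0.27 to -0.16). HMMR, a spindle-associated protein, had 2801 and 2764 counts and a log2 ratio of 0.22 (0.14 to 0.29). Except for HMMR, these genes were lower in (R)-9b.

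The genes of the central spindle and of cytokinesis lay close to 0. KIF20A, KIF23 and KIF14, kinesins of the central spindle, had log2 ratios of -0.12 (3120 and 2427 counts), 0.02 (1064 and 917 counts) and -0.14 (733 and 565 counts). ECT2, which activates the small GTPase RhoA at the division plane, was at 0.06 (3713 and 3285 counts), and ANLN, the contractile ring scaffold anillin, was also at 0.06 (3442 and 3042 counts). Of these 5, the interval excluded 0 for KIF20A alone, and it included 0 there too with total counts without mitochondrially encoded genes. PRC1, which bundles the microtubules of the central spindle, had 92 and 88 counts, a log2 ratio of 0.17 (-0.26 to 0.61). Its gene count is an uncertain measure of its level. In GENCODE 29, 58.4% of its exon bases are shared with other annotated genes, among them AC068831.7 on the same strand, and reads that fit several genes were left out of the gene counts. The authors' estimated transcript counts for PRC1 were 2114 in vehicle and 1649 in (R)-9b, a log2 ratio of -0.11.

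The transcription factors and the chromosome genes completed the set. MYBL2, the B-MYB partner of the MuvB complex, had 14103 counts in vehicle and 8790 in (R)-9b, or 212 and 156 normalized CPM, and a log2 ratio of -0.44 (-0.48 to -0.41). FOXM1, which acts later on the same promoters, had 8167 and 6855 counts and a log2 ratio of -0.01 (-0.06 to 0.03). The direction of FOXM1 turned with the scaling, from -0.08 with total counts to 0.05 with total counts without mitochondrially encoded genes, both with intervals clear of 0, whereas MYBL2 was lower under each scaling. TOP2A, the topoisomerase that untangles sister chromatids, had 5210 and 3480 counts and a log2 ratio of -0.34 (-0.41 to -0.28). MKI67, whose product Ki-67 coats mitotic chromosomes and is the usual stain for dividing cells, had 6689 and 4361 counts and a log2 ratio of -0.38 (-0.43 to -0.32).

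Levels of different genes were compared per kilobase of exon, with the exon lengths of GENCODE 29. In the vehicle library the highest level was that of MYBL2 at 76.3 normalized CPM per kilobase, followed by CDC20 at 41.8, CCNB1 at 36.9, UBE2C at 29.4 and TPX2 at 28.0. In the (R)-9b library CDC20 was first at 59.9 and MYBL2 second at 56.1, followed by CCNB1 at 46.7, CDK1 at 37.5 and UBE2C at 27.9. MYBL2 and CDC20 thus exchanged places. Apart from PRC1, the lowest level in vehicle was that of KIF14 at 1.51, and the levels of these 39 genes spanned 50.4-fold. The median level of the 40 genes was 9.91 in vehicle and 9.66 in (R)-9b normalized CPM per kilobase. Across the 40 genes, which share both libraries, the order of levels was largely kept (Spearman's rho 0.970, a description).

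**Figure D3:**
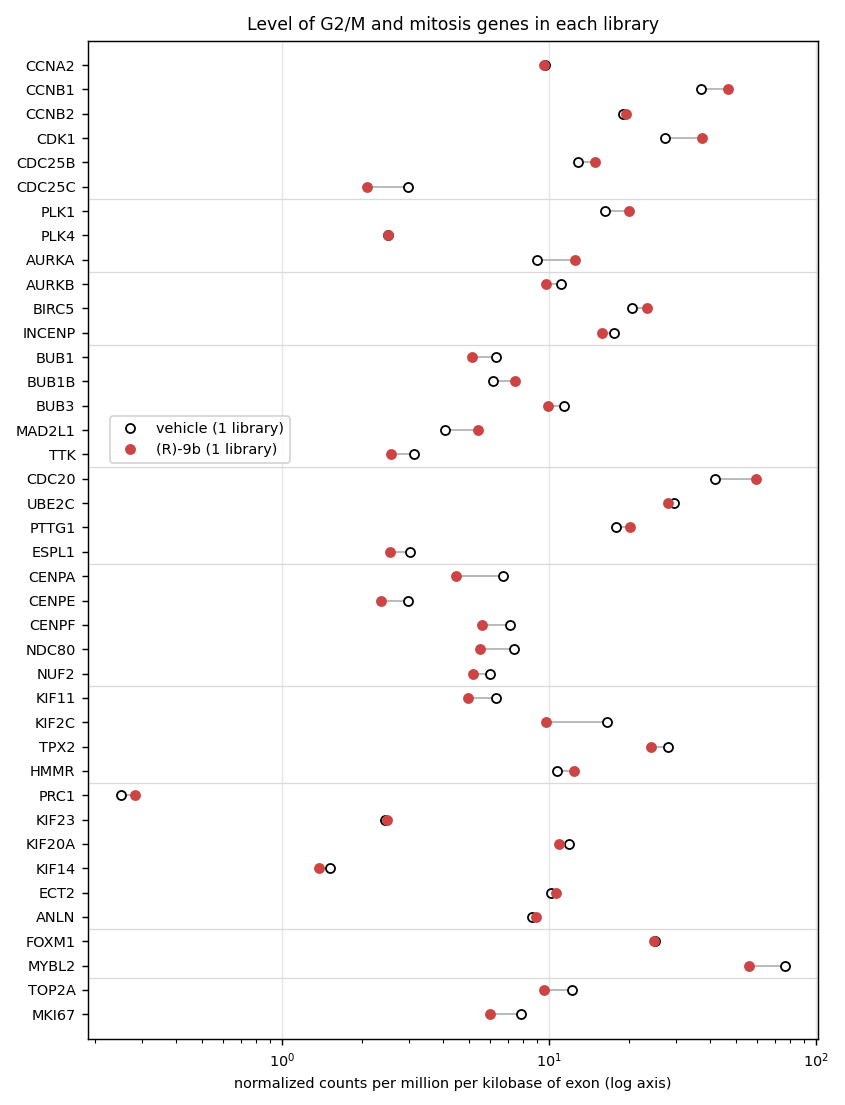
Level of each of the 40 genes in the vehicle library (open circles) and the (R)-9b library (filled red circles), in normalized CPM per kilobase of exon on a log axis, grouped by role with grey lines between groups. The circles of a gene lie close together compared with the distance between genes; CDC20 moves to the highest (R)-9b level at 59.9, and PRC1 stands apart at 0.250 and 0.282.

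Other genes of cell division were taken from lists set by role. As given above, 10.0% of all genes with at least 1000 counts were lower and 8.72% were higher beyond 1.5-fold. Of 56 other mitosis genes, 1 was lower and 3 were higher beyond 1.5-fold, and the median log2 ratio was -0.10. The lowest were SKA1, a kinetochore gene, at -0.89 (1013 and 465 counts), CENPM at -0.53 (3998 and 2345 counts) and CDCA5, which encodes the cohesin protector sororin, at -0.51 (3295 and 1962 counts). The highest were CKS2, a CDK-binding protein, at 1.03 (4308 and 7482 counts), CENPN, a centromere protein, also at 1.03 (8274 and 14296 counts), and DEPDC1 at 0.77 (2020 and 2923 counts). SKA1 was thus the one gene of the list that was lower beyond 1.5-fold, and 22.8% of the exon bases of CENPN are shared with other genes. Of the 15 genes of the APC/C, its activator FZR1 included, none was beyond 1.5-fold. ANAPC15 at -0.43, FZR1 at -0.35 and ANAPC10 at -0.27 were the lowest, and ANAPC2 at 0.43, ANAPC7 at 0.39 and ANAPC5 at 0.28 were the highest. ANAPC10 had only 108 and 76 counts, and its interval (-0.71 to 0.17) included 0. Of the exon bases, 29.6% for ANAPC10 and 27.1% for ANAPC15 are shared with other genes.

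The 9 cohesin genes encode parts of the complex that holds sister chromatids together or proteins that act on it. Their median log2 ratio was -0.33, and NIPBL at -0.70 (4668 and 2444 counts) and SMC3 at -0.68 (7460 and 3939 counts) were lower beyond 1.5-fold. With total counts or DESeq2 size factors 4 of the 9 were, STAG2 and STAG1 being added. STAG2 at -0.58, STAG1 at -0.57, MAU2 at -0.33 and SMC1A at -0.28 also had intervals below 0. WAPL and PDS5A, which release cohesin, were both at 0.00, and PDS5B was at 0.26.

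The 11 inhibitors of the cell cycle, some of which act at mitotic entry and others mainly in G1, ranged from -1.92 to 1.29. GADD45A, a stress-induced inhibitor of CDK1, had 4799 counts in vehicle and 1072 in (R)-9b, a log2 ratio of -1.92 (-2.02 to -1.83). CDKN1B, the CDK inhibitor p27, had 5034 and 1617 counts and a log2 ratio of -1.40 (-1.48 to -1.32). SFN, which encodes the protein 14-3-3σ, had 102 and 212 counts and a log2 ratio of 1.29 (0.95 to 1.65). These were the genes of the list beyond 1.5-fold. WEE1, the kinase that inhibits CDK1, was at -0.52 (1780 and 1052 counts) and CDKN1A, the CDK inhibitor p21, was at -0.47 (16437 and 10071 counts). CHEK1 at -0.34 and CDKN2C at -0.24 were lower as well, whereas CHEK2 was at 0.51, BTG2 at 0.11, PKMYT1 at 0.09 and CDKN2D at 0.06.

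Among 14 genes for factors that act at G2/M promoters, NFYC, a subunit of NF-Y, was lower at -0.72 (4574 and 2359 counts), while NFYA at 0.10 and NFYB at -0.10 were near 0. Of the MuvB subunits, LIN52 at -0.60 (868 and 485 counts) and LIN54 at -0.59 (1776 and 1004 counts), the subunit that binds the CHR, were just beyond 1.5-fold, and both were inside it with upper quartile scaling and with total counts without mitochondrially encoded genes. LIN9 was at 0.05 and RBBP4 at -0.39, and LIN37 was at 0.63 with only 80 and 105 counts and with 54.0% of its exon bases shared with other genes. E2F4, the repressor E2F of the DREAM complex, was higher at 0.76 (2642 and 3803 counts), E2F5 was at 0.23, and its partners TFDP1 and TFDP2 were at 0.11 and 0.14. The pocket proteins RBL1 and RBL2 were at -0.36 and -0.30. Among 6 further E2F genes, E2F3 was higher at 0.89 (1426 and 2246 counts) and the repressor E2F7 was lower at -1.07 (1195 and 483 counts). E2F1 was at 0.18, E2F2 at 0.44, E2F6 at -0.20 and E2F8 at -0.06.

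The genes of the step before, G1/S and DNA replication, had a median log2 ratio of -0.07, close to that of the G2/M and mitosis genes, but a wider spread. Of 39 such genes, 9 were lower and 2 were higher beyond 1.5-fold, or 28.2%, against 18.8% of all genes with at least 1000 counts. With total counts without mitochondrially encoded genes 5 were lower and 3 were higher. Of the 10240 genes with at least 1000 counts, 845 were then lower and 1078 higher. The excess of the 39 genes over all genes was thus smaller with that scaling. PRIM1, a primase subunit, was the lowest at -1.06 (1185 and 481 counts), followed by CDC45 at -0.82 (2725 and 1310 counts) and CDT1 at -0.76 (8492 and 4257 counts). CCNE1, which encodes cyclin E1, was the highest at 1.33 (641 and 1362 counts), followed by CCND1, which encodes cyclin D1, at 0.73 (15353 and 21546 counts) and CDC25A at 0.57 (1040 and 1312 counts). The interquartile range of the log2 ratio was 0.53 wide for all genes with at least 1000 counts. It was 0.57 wide for the G1/S and replication genes and 0.49 wide for the G2/M and mitosis genes. With 1 library per condition this difference in spread was not tested.

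**Figure D4:**
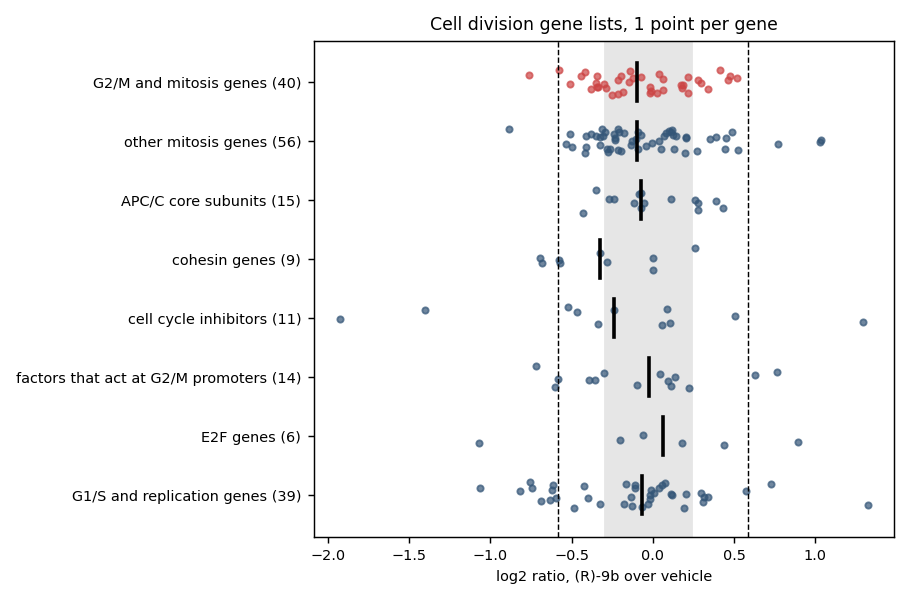
Log2 ratio of (R)-9b to vehicle (horizontal axis) for each gene of 8 lists, with the number of genes in brackets, a black bar for the median of the list, grey shading for the interquartile range of all genes with at least 1000 counts (-0.29 to 0.24) and dashed lines at 1.5-fold. The G2/M and mitosis genes (red) have 1 point beyond the dashed lines, and the cell cycle inhibitors reach -1.92 and 1.29.

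The authors' estimated transcript counts gave a further reading from the same libraries. For 39 of the 40 genes these counts summed to at least 50, and the direction was the same as in the gene counts for 37. The exceptions were PRC1 and PLK4. CCNA2 was listed at 0 in both libraries there, in spite of its 1802 and 1510 gene counts, and a value of 0 can be a failed estimate. BUB1 had estimated counts of 254 and 14.8, a log2 ratio of -3.85, and PLK4 had a log2 ratio of 1.43, the extremes of this reading. KIF2C was at -0.76 (1575 and 785 estimated counts), MYBL2 at -0.43 (5160 and 3228) and CDK1 at 0.52 (2513 and 3038). Of the 39 genes, 14 lay outside the counting interval of their gene count ratio, among them TPX2 at -0.60 (268 and 149 estimated counts), CCNB1 at 0.58 (610 and 771), MAD2L1 at 0.68 (322 and 435) and CDC25B at 0.05 (1332 and 1166). CDC20, with 217 and 353 estimated counts, had a log2 ratio of 0.95. The median over the 40 genes was 35.0 estimated counts per 100 gene counts. For TPX2, CCNB1 and CDC20 the estimates were a smaller part of the gene counts, which were 6724, 6293 and 5674 in vehicle. Most of the MAD2L1 estimate, 288 and 420, was for MAD2L1-202, annotated as a nonsense-mediated decay transcript.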

How the data were processed

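RNA sequencing of C4-2B cells was analysed, with 1 library for vehicle and 1 for (R)-9b. The authors deposited gene counts of uniquely aligned, unambiguous reads, without normalization. Per the labels, the processing used the build hg38 and named STAR 2.5.1a, featureCounts 1.4.6-p5 and Salmon 0.8.2, whereas the paper names a later STAR version and an Ensembl assembly. The strand setting is not given in the sources used here. The authors also deposited CPM per gene and log2 CPM moderated across genes. The authors derived the deposited estimated counts of transcripts from the same reads, by a tool the sources used here do not tie to this table. All served as alternatives. The transcript CPM and log2 tables were not used.

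Repeated lines of a gene were dropped. Counts were scaled with TMM (edgeR 4.0.16, R 4.3.3). Exact Clopper-Pearson 95% intervals of each ratio were computed in Python 3.11.15 with scipy 1.17.1 and were checked on simulated counts. They cover counting error only, because there was 1 library per condition. PCR copies cannot be told apart and are counted as separate reads, so the intervals can be too narrow even for counting error. Halved counts were tried in case both mates of a pair were counted. No p-value was computed, because no spread between cultures could be estimated. Medians of the lists outside the 40 genes, and counts over all genes, leave out genes under 10 counts in the sum of the libraries. Exon lengths and coordinates came from GENCODE 29 (GRCh38). The alternatives were other scalings (with DESeq2 1.42.0 size factors among them), other tables, minimum counts of 1 and 50, 5 added counts, and whole intervals in place of point ratios.

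All 40 genes are named, by role. Of longer lists the 3 highest and 3 lowest genes with at least 50 counts are named, and of lists under 15 genes every gene. The genes and lists were chosen with earlier results of these data known. Of 5 breast markers, the 2 with at least 10 counts summed to 13.8 and 9.17 normalized CPM.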

Additional observations from a re-analysis of the deposited data

How the results depend on the processing

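The median log2 ratio of the 40 genes, -0.10, ranged from -0.16 to -0.04 over the alternatives, and none of the 30 genes whose TMM interval excluded 0 changed sign. Over the 4 other scalings, added after the data were seen, 18 to 22 intervals lay below 0 and 11 to 15 above, and KIF20A alone lost its call, while CCNB2, ECT2, ANLN, UBE2C, KIF14 and FOXM1 had an interval clear of 0 under at least 1 of them, FOXM1 below 0 with total counts and above 0 without mitochondrially encoded genes. The number lower by over 1.5-fold, 1, became 2 with total counts, the deposited CPM, the moderated log2 CPM and DESeq2 size factors, CENPA being the gene added. With estimated transcript counts 4 genes were lower and 3 higher by over 1.5-fold, and 1 was lower and 1 higher by over 2-fold. The genes beyond 2-fold were BUB1 and PLK4, each with a transcript estimated at 0 in 1 library. The cause was not tested. The median of the cohesin genes moved from -0.33 to -0.39 with total counts, the deposited CPM, the moderated log2 CPM and estimated transcript counts, and to -0.27 with total counts without mitochondrially encoded genes. Other counts beyond 1.5-fold, also added after the data were seen, moved as follows. With total counts 2 other mitosis genes, not 1, and 4 cohesin genes, not 2, were lower (4 with DESeq2 size factors too), and 1 G2/M promoter factor, not 2, was higher. With upper quartile scaling and without mitochondrially encoded genes 1 promoter factor, not 3, was lower, and in the latter 5 G1/S genes, not 9. Under both of these scalings 3 G1/S genes, not 2, were higher. Where the scaling changed, these follow from the shift it gives to every ratio. With the counts halved, all 30 genes with an interval clear of 0 kept their side. No paired analysis was possible because there was 1 library per condition, and no library could be left out. A low gene count limits only PRC1, whose interval had a half-width of 0.44 on the log2 scale, against at most 0.18 for the other genes. As stated for PRC1 above, reads that fit several genes were left out of the gene counts.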
